A study of Homo sapiens with 6 samples.

Results

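NETO1, PAK6, RGS22, STK26 and ENPP4 are 5 genes outside the keratin family that were chosen by their transcript counts, which were higher in BT-549 cells silenced for PBRM1. Each was taken by its symbol from a table of 37887 rows of raw counts, and each had a single row. Because the picking used the same 6 libraries and the same contrast, the levels and fold changes of these 5 genes are given below as a description, with no test. The tests below concern their relatives, their partners and their neighbours on the chromosome, none of which was used to pick them. The lists of relatives and partners were, however, drawn up with earlier results of these data known.

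The genes belong to different branches of cell signaling. NETO1 is a membrane protein that travels with kainate-type and NMDA-type glutamate receptors and is best known from neurons. PAK6 is a group II p21-activated kinase, a serine/threonine kinase that binds the small GTPase CDC42. RGS22 carries RGS domains, the module that shortens signaling by heterotrimeric G proteins, and is known mainly from testis. STK26, also called MST4, is a germinal center kinase of the GCKIII group that works with the adaptor PDCD10 and in the STRIPAK phosphatase complex. ENPP4 is an ectoenzyme that cleaves extracellular nucleotides at the cell surface. PBRM1 itself is the bromodomain subunit that targets the PBAF form of the SWI/SNF chromatin remodeler.

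BT-549 is an established line of triple-negative breast cancer (TNBC). Total RNA came from triplicate cultures, and there were 3 libraries of control cells (shCTL) and 3 libraries of PBRM1-silenced cells (shPBRM1), made with a stranded poly(A) kit. By title the libraries carry either a control or a PBRM1 shRNA, while the treatment labels and the design text give 0.1% DMSO for the control libraries and 500 ng/ml doxycycline (DOX) for cells carrying a tet-inducible PBRM1 shRNA. DOX and PBRM1 loss cannot be told apart here, nor can a control shRNA vector and an uninduced PBRM1 vector in the control cells. Triplicate cultures of a single transduced line measure the spread between cultures and not between independent lines. The PBRM1 row had 5870, 7619 and 8118 counts in control cells (replicates 1, 2 and 3, the order kept throughout) against 2598, 1591 and 2657 after silencing, or 26.5% of the control level after normalization. Each library held 36429395 to 65096297 counts in total. Levels are given in CPM (counts scaled to a common library size after TMM normalization). The line's mesenchymal markers VIM, ZEB1, FN1, CD44 and EGFR had means of 197 to 1551 CPM in the control cells. Of the receptors, ESR1 had 0 counts in 5 of the 6 libraries and PGR at most 12 in any library, while ERBB2 was at 51.3 CPM in control cells.

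NETO1 gave 6, 10 and 12 counts in control cells and 281, 147 and 271 counts after silencing. After normalization these were 0.161, 0.206 and 0.238 CPM in shCTL and 4.68, 3.78 and 4.25 CPM in shPBRM1. The shCTL libraries were all low and the shPBRM1 libraries all high, so that the lowest shPBRM1 value was 15.9 times the highest shCTL value. The group means, 0.201 ± 0.0388 CPM and 4.24 ± 0.452 CPM (SD, n = 3 each), differed 21.0-fold. Taken by replicate number, the fold was 29.1, 18.4 and 17.9. NETO1 thus went from a level close to the floor of detection, which was set at 3 counts or 0.0595 to 0.0804 CPM in the shCTL libraries, to a level clearly above it.

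NETO1 lies on the minus strand of chromosome 18, at chr18:72742314-72868146 in the GENCODE v29 annotation of GRCh38, with 7 annotated transcripts. RefSeq gives 3 start sites for it. The stretch shown here lies directly upstream of the outermost RefSeq start, at chr18:72867988-72868119 on the minus strand (GRCh38.p14). In the GENCODE annotation it falls inside the gene span and outside annotated exons. It is shown for its 10 CpG dinucleotides and its GC boxes. Which of the starts these cells use was not tested. Capitals mark GC boxes (GGGCGG on either strand).

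NETO1: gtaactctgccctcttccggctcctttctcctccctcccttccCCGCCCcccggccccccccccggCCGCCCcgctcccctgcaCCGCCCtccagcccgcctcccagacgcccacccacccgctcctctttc

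PAK6 gave 36, 35 and 26 counts in control cells and 328, 222 and 379 counts in the shPBRM1 libraries. The levels were 0.965, 0.720 and 0.516 CPM in shCTL and 5.46, 5.70 and 5.95 CPM in shPBRM1. The control libraries spread more, by a factor of 1.87 between the highest and the lowest, than the silenced ones, by 1.09. The ranges did not overlap, and the lowest shPBRM1 value was 5.66 times the highest shCTL value. The means of 0.733 ± 0.225 CPM and 5.70 ± 0.241 CPM (SD, n = 3 each) differed 7.78-fold, and the fold by replicate number was 5.66, 7.92 and 11.5.

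PAK6 lies on the plus strand at chr15:40238759-40277487, with 17 annotated transcripts, and shares exons with the readthrough gene BUB1B-PAK6. The readthrough row held 0 counts in 5 libraries and 1 count in shPBRM1 replicate 1. Reads in exons common to both annotations could have gone to either row or to neither. C15orf56, a transcript of the opposite strand that overlaps PAK6, had 0, 4 and 12 counts in shCTL and 27, 4 and 12 counts in shPBRM1 libraries. The strand setting of the counting is not given in the sources used here. The stretch at chr15:40239803-40239862 (GRCh38.p14, plus strand) lies upstream of the outer RefSeq start, inside the annotated gene span and outside annotated exons. It holds 2 CpG dinucleotides in 60 bases and none of the motifs searched, and is shown for contrast with NETO1.

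PAK6: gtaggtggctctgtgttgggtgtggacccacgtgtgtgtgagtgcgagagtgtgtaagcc

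RGS22 gave 2, 1 and 2 counts in control cells, none above the floor, and 57, 29 and 63 counts in the shPBRM1 libraries. The shPBRM1 levels were 0.950, 0.745 and 0.988 CPM, with a mean of 0.894 ± 0.131 CPM (SD, n = 3). All silenced libraries were above all control libraries. The ratio of the pooled counts, 149 against 5, was 25.0 after scaling to library size. Its exact 95% interval of 10.5 to 78.1 covers counting error only and not the spread between libraries. Because RGS22 was picked for this rise, the interval is a description and no test. Set against 3 counts in every shCTL library in place of the counts found, the rise was 13.3-fold. RGS22 lies on the minus strand at chr8:99960936-100131268 and overlaps SNORD77B, which had 0 counts throughout.

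STK26 gave 0 counts in all 3 control libraries and 26, 17 and 26 counts in the shPBRM1 libraries. The shPBRM1 levels were 0.433, 0.437 and 0.408 CPM, with a mean of 0.426 ± 0.0157 CPM (SD, n = 3), so the libraries differed by a factor of 1.07 at most. Counting error alone was wider than that, since the exact 95% Poisson interval of 26 counts runs from 17.0 to 38.1 and that of 17 counts from 9.90 to 27.2. Against a floor of 3 counts per shCTL library, the STK26 level after silencing was at least 6.34-fold higher. A count of 0 does not show that control cells lack the transcript.

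STK26 lies on the plus strand of the X chromosome at chrX:132023265-132075943, with 5 annotated transcripts. The stretch at chrX:132023408-132023507 (GRCh38.p14), between annotated exons and upstream of the RefSeq start, is shown because the RefSeq window of the gene is CpG-rich. The stretch holds 6 CpG dinucleotides in 100 bases and no motif of those searched. Which start these cells use was not tested.

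STK26: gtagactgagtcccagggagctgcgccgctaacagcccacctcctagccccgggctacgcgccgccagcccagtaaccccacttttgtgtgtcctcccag

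ENPP4 behaved differently from the other 4 genes in that it was already well expressed in control cells. It gave 740, 960 and 1015 counts in control cells and 2563, 1748 and 2754 counts after silencing. The levels were 19.8, 19.7 and 20.1 CPM in shCTL and 42.7, 44.9 and 43.2 CPM in shPBRM1. Both groups were tight, and the lowest shPBRM1 library was 2.12 times the highest shCTL library. The means of 19.9 ± 0.199 CPM and 43.6 ± 1.16 CPM (SD, n = 3 each) differed 2.19-fold, and the fold by replicate number was 2.15, 2.27 and 2.15. ENPP4 lies on the plus strand at chr6:46129993-46146699, has 1 annotated transcript and overlaps no other annotated gene.

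**Figure D1:**
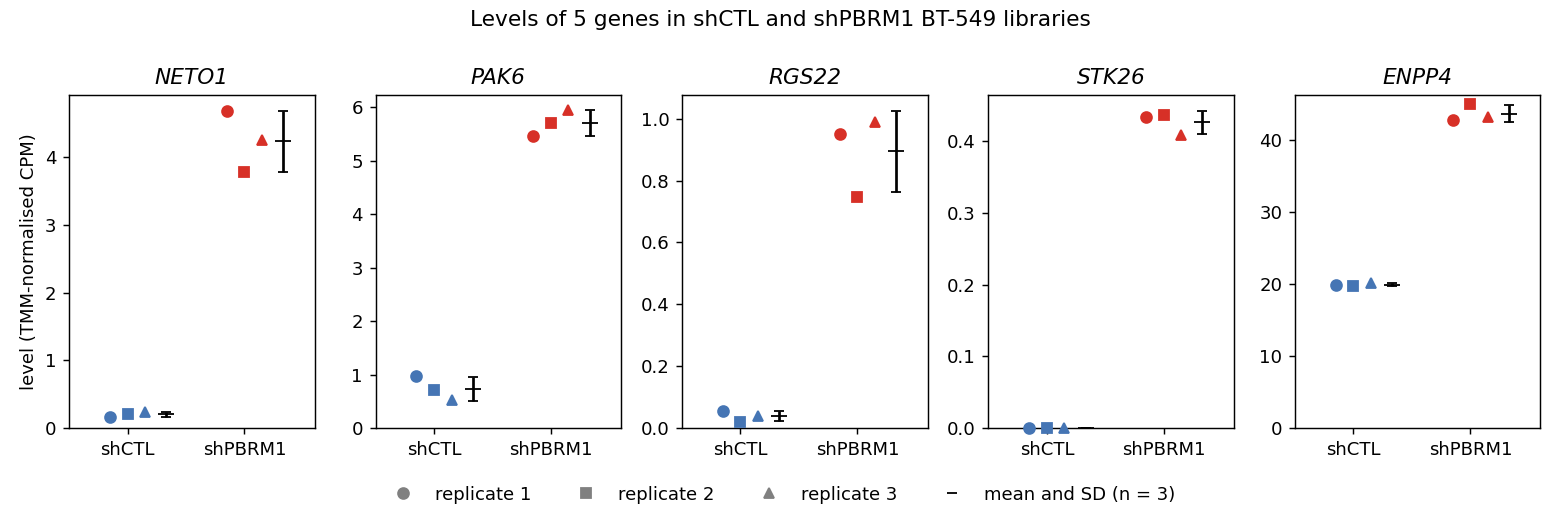
Level of each gene in TMM-normalised CPM (vertical axis, from 0, with its own scale for each gene) in the shCTL and shPBRM1 libraries, with 1 point per library, the marker giving the replicate number and the black bar the mean and SD (n = 3). All shPBRM1 points lie above all shCTL points for each gene, with STK26 at 0 in the 3 shCTL libraries and ENPP4 at 19.7 to 20.1 CPM there.

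All 5 genes passed the filter on low counts. NETO1, RGS22 and STK26 passed only through the shPBRM1 libraries, since the filter asked for 0.205 CPM in at least 3 libraries and 2, 0 and 0 shCTL libraries reached it. In edgeR's quasi-likelihood test, a gene was called when its adjusted p was below 0.05 and its fold change exceeded 2. Of 15450 tested genes, 443 (2.87%) were called higher, and 12.6% were called in either direction. The shPBRM1 range lay wholly above the shCTL range for 33.3% of tested genes, and the ranges did not overlap in either direction for 68.3%. The choice of the 5 genes fixed their side of these thresholds, so nothing is read from it. On the log2 scale with 2 counts added, the differences were 4.13 (standard error 0.16) for NETO1, 2.93 (0.25) for PAK6, 3.62 (0.22) for RGS22, 3.54 (0.028) for STK26 and 1.13 (0.024) for ENPP4. The added counts pull the values of RGS22 and STK26 toward 0. The shCTL libraries of STK26 all had 0 counts and so shared a value set by the added counts. Its standard error therefore holds no spread from them and does not measure how well its fold is known. By edgeR's own estimate, in descending order among all tested genes, STK26 was at place 1, RGS22 at 4, NETO1 at 5, PAK6 at 10 and ENPP4 at 343. The places of STK26 and RGS22 rest on control counts at the floor. Since the 5 genes were picked for their rise, nothing is read from these places either.

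Divided by the length of annotated exon, so that genes can be set side by side, ENPP4 had by far the highest level of the 5 genes in both groups. In shPBRM1 cells it stood at 9.38 ± 0.250 CPM per kb (SD, n = 3). PAK6 followed with 0.884 ± 0.0374 CPM per kb and NETO1 with 0.769 ± 0.0820 CPM per kb. The ranges of these 2 neighbours in the order overlapped, with 0.846 to 0.921 for PAK6 and 0.686 to 0.850 for NETO1. RGS22 at 0.141 ± 0.0205 CPM per kb and STK26 at 0.127 ± 0.00469 CPM per kb also overlapped. In shCTL cells the order was ENPP4 at 4.28 ± 0.0428, PAK6 at 0.114 ± 0.0348 and NETO1 at 0.0366 ± 0.00704 CPM per kb, with no overlap between them, while RGS22 and STK26 were at the floor. Thus NETO1 and PAK6 differed beyond their spread in control cells and not in silenced cells. These values assume that all annotated exons are used, which was not tested.

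**Figure D2:**
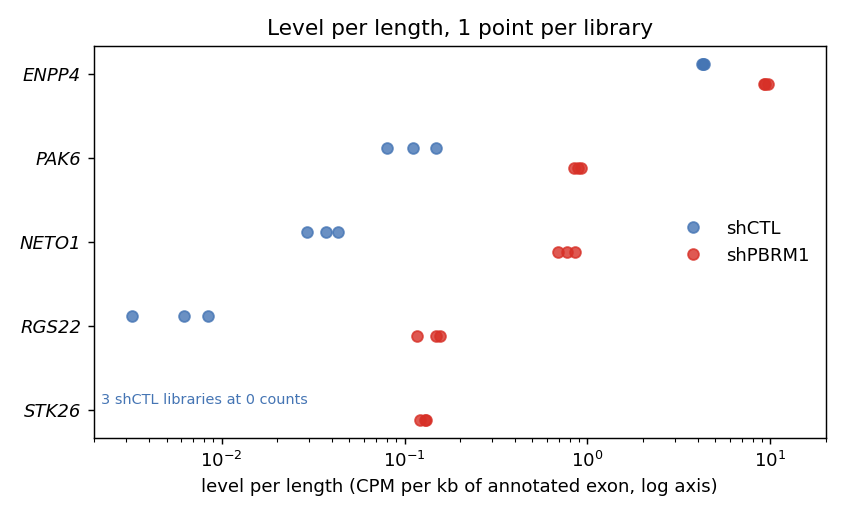
Level per length in CPM per kb of annotated exon (horizontal log axis) for each gene, with 1 point per library, blue for shCTL and red for shPBRM1. The red points of PAK6 and NETO1 overlap, as do those of RGS22 and STK26, and STK26 has no blue point because its 3 shCTL libraries had 0 counts.

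To ask how often a transcript went from the floor to above it, all rows were screened in the same way. No shCTL library was above 3 counts in 18523 rows, and in 101 of these (0.545%) each shPBRM1 library was above 3 counts. Ordered by their shPBRM1 level in CPM, RGS22 was at place 1 and STK26 at place 2 of these 101 rows. At place 5 stood FRMD7, which is the neighbor of STK26 on the X chromosome. In the other direction, 145 rows were at the floor in each shPBRM1 library and above it in each shCTL library, out of 18291 rows at the floor in shPBRM1. Some rows passed narrowly, such as LEMD1-DT with 3, 3 and 1 counts in shCTL and 4, 5 and 4 in shPBRM1 libraries. The cut was on raw counts, and shPBRM1 replicates 1 and 3 were the deepest libraries, with 60221790 and 65096297 counts. These numbers of rows are descriptions and carry no test. RGS22 and STK26 were picked for their rise, so nothing is read from their places.

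**Figure D3:**
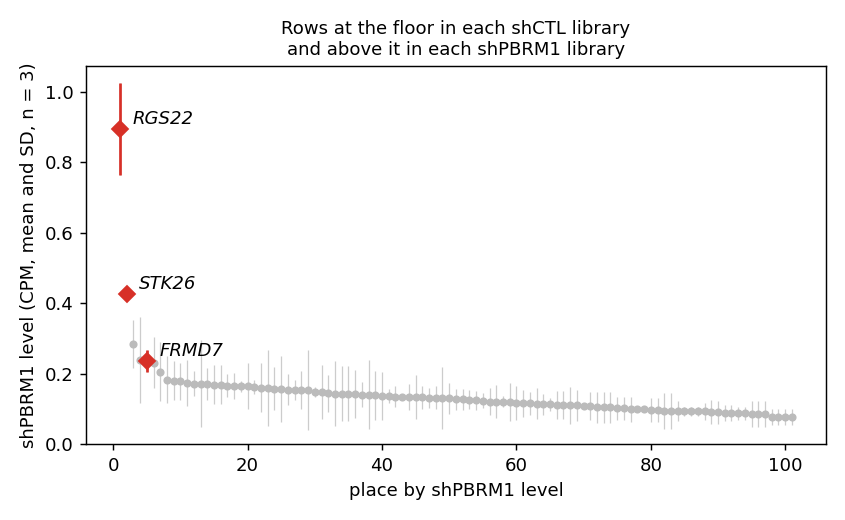
Mean shPBRM1 level in CPM with SD (n = 3, vertical axis from 0) of the 101 rows that had at most 3 counts in each shCTL library and more than 3 in each shPBRM1 library, ordered by level. RGS22 at 0.894 CPM and STK26 at 0.426 CPM stand above the other rows, and FRMD7 is at 0.236 CPM.

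The pattern of each gene over the 6 libraries was compared with that of every other tested gene, using the root mean square difference of log2 CPM values (2 counts added) centered on the shCTL mean. The values were not scaled, so the measure mostly matches genes by the size of their change, for which the 5 genes were picked. Whether genes near each other by this measure are regulated together was not tested. No nearest genes are given for STK26 and RGS22, because their control counts were at the floor, where the 2 added counts largely set the log2 value. Apart from these, the gene nearest to NETO1 was KRT18 (0.51), a keratin of simple epithelium. PAK6 was nearest to IL2RA (0.30), the alpha chain of the interleukin-2 receptor, then to NTSR1 (0.34), a neurotensin receptor, and PART1 (0.35). PART1 was close to the floor, with 6, 5 and 4 counts in control cells. ENPP4 had its own set of near neighbors, CCNA2 (0.019), a cyclin of S and G2 phase, MESD (0.023), a chaperone for LRP receptors, and GALNT1 (0.033), an enzyme that starts O-glycosylation.

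For the relatives and partners of the 5 genes, 105 genes were listed and all had a row, of which 79 were tested. Of these, 5 (6.33%) were called higher in shPBRM1 cells and 11 (13.9%) lower, next to 2.87% and 9.68% of all tested genes. Their median log2 fold change was -0.014 and that of all tested genes -0.0082. Leaving out shCTL replicate 1 or shCTL replicate 3 left 3 higher calls. Changes are given on the log2 scale with 2 counts added, which understates those of low genes, while calls use edgeR's own estimate.

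Around NETO1, none of the 10 tested genes of its list was called higher by edgeR or by DESeq2. By edgeR, 3 of them were called lower, next to 2.87% higher and 9.68% lower of all tested genes. Without the fold minimum, 2 were higher and 5 lower at an unadjusted p under 0.05, next to 32.9% and 34.6% of all tested genes. The subunits GRIK2 of kainate receptors and GRIN1 of NMDA receptors fell from 1.76 to 0.733 CPM and from 0.435 to 0.0841 CPM, with log2 fold changes of -1.27 (standard error 0.33, edgeR adjusted p = 9.97e-05) and -2.02 (standard error 0.45, edgeR adjusted p = 3.26e-04). GRIN2C fell by 1.03 on the log2 scale (standard error 0.33, edgeR adjusted p = 0.0289), a call lost with DESeq2 (adjusted p = 0.115) and without shCTL replicate 3 or any 1 of the shPBRM1 libraries. NETO2, the closest relative of NETO1, was the more abundant of the pair, and it was higher in shPBRM1 cells, at 112 ± 4.30 against 67.5 ± 1.84 CPM (SD, n = 3 each). The log2 fold change was 0.73 (standard error 0.039, edgeR adjusted p = 2.72e-14), under the fold minimum. GRIN2A, another NMDA receptor subunit, had 0.93 (standard error 0.029, edgeR adjusted p = 2.70e-14) and was also under it. GRIK3 had 0 counts in each library.

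Around PAK6, none of the 16 tested genes was called higher by edgeR or DESeq2. By edgeR, 2 of them were called lower, next to 2.87% higher and 9.68% lower of all tested genes. Without the fold minimum, 7 were higher and 4 lower at an unadjusted p under 0.05, next to 32.9% and 34.6% of all tested genes. RAC2, a small GTPase of blood cells, fell from 0.260 to 0.0720 CPM, a log2 fold change of -1.41 (standard error 0.40, edgeR adjusted p = 0.0102) that DESeq2 did not call (adjusted p = 0.0542) and that was lost without shPBRM1 replicate 3. The other group II kinases were PAK4, with a log2 fold change of 0.27 (standard error 0.089, edgeR adjusted p = 1.29e-04) under the fold minimum, and PAK5, with at most 2 counts in any library. CDC42, the GTPase that binds these kinases, had 0.62 (standard error 0.048, edgeR adjusted p = 1.29e-11), again under the fold minimum. Group I members were not called, with PAK1 at -0.78, PAK2 at 0.29 and PAK3 at -0.30 on the log2 scale.

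Around RGS22, 23 of 31 genes were tested, 3 were called higher and 2 lower, next to 2.87% and 9.68% of all tested genes. RGS5, an RGS protein of smooth muscle and pericytes, rose from 2.75 ± 0.268 to 6.30 ± 1.21 CPM (SD, n = 3 each), with a log2 fold change of 1.20 (standard error 0.17, edgeR adjusted p = 5.53e-08). GNAI1, an inhibitory G protein alpha subunit, rose by 1.08 on the log2 scale (standard error 0.046, edgeR adjusted p = 9.25e-15). RGS9 rose by 1.08 (standard error 0.31, edgeR adjusted p = 0.00396), a call lost without shCTL replicate 3 and without shPBRM1 replicate 3. RGS16 fell by 2.07 (standard error 0.33, edgeR adjusted p = 2.11e-05). RGS11 fell by 0.997 (standard error 0.19, edgeR adjusted p = 8.07e-05), at the edge of the fold minimum. It was not called with the replicate number as a block, where it was at -0.97, nor without shCTL replicate 2 or shPBRM1 replicate 3. GNA13, a G protein alpha subunit that RGS22 can bind, was at -0.0039 on the log2 scale (standard error 0.024, edgeR adjusted p = 0.928). Other alpha subunits moved slightly and in both directions, under the fold minimum. GNA12 was at 0.19 (standard error 0.039, edgeR adjusted p = 9.99e-05) and GNA11 at -0.22 (standard error 0.023, edgeR adjusted p = 3.72e-05). In all, 8 genes of this list had at most 3 counts in any library, among them RGS1, RGS13 and RGS18, which are known from lymphoid and blood cells.

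Around STK26, 20 of 21 genes were tested, and none was called higher by edgeR or DESeq2. By edgeR, 1 of them was called lower, next to 2.87% higher and 9.68% lower of all tested genes. Without the fold minimum, 6 were higher and 8 lower at an unadjusted p under 0.05, next to 32.9% and 34.6% of all tested genes. STRIP2, a scaffold subunit of STRIPAK, fell from 5.21 ± 0.518 to 2.03 ± 0.204 CPM (SD, n = 3 each), a log2 fold change of -1.33 (standard error 0.12, edgeR adjusted p = 6.51e-09). The other GCKIII kinases, STK24 and STK25, were far above STK26 in both groups. STK24 was at 111 and 86.6 CPM in shCTL and shPBRM1, a log2 fold change of -0.35 (standard error 0.032, edgeR adjusted p = 4.35e-09) under the fold minimum. STK25 was at 43.0 and 44.9 CPM, with 0.059 (standard error 0.057, edgeR adjusted p = 0.308). PDCD10, the adaptor of these kinases, had 0.16 (standard error 0.050, edgeR adjusted p = 0.00391).

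Around ENPP4, 10 of 23 genes were tested, 2 were called higher and 3 lower, next to 2.87% and 9.68% of all tested genes. ENPP1, which makes pyrophosphate from extracellular ATP, rose with counts of 1419, 1981 and 2156 in shCTL and 4968, 3207 and 5230 in shPBRM1 libraries. The levels of 40.5 ± 2.37 and 82.4 ± 0.350 CPM (SD, n = 3 each) gave a log2 fold change of 1.02 (standard error 0.049, edgeR adjusted p = 8.81e-16), close to the fold minimum and not called without shCTL replicate 1 (0.98) or with scaling by library size only (0.97). ENPP2, which encodes autotaxin, the enzyme that makes lysophosphatidic acid, moved the opposite way, from 698, 956 and 932 counts to 54, 36 and 57 counts. It fell from 18.9 ± 0.631 to 0.906 ± 0.0164 CPM (SD, n = 3 each), a log2 fold change of -4.33 (standard error 0.031, edgeR adjusted p = 2.80e-20). ENPP5, the closest relative of ENPP4 and its neighbor on chromosome 6, was not tested, with 4, 2 and 10 counts in shCTL and 4, 2 and 4 counts in shPBRM1 libraries. Of the nucleotide receptors, P2RY6 fell by 2.17 on the log2 scale (standard error 0.20, edgeR adjusted p = 1.86e-06) and P2RY2 by 1.10 (standard error 0.16, edgeR adjusted p = 0.0151), the latter lost with DESeq2 (adjusted p = 0.0765) and without shCTL replicate 2 or shPBRM1 replicate 3. ADORA2A, an adenosine receptor with 6 to 27 counts per library, was called higher at 0.91 (standard error 0.20, edgeR adjusted p = 0.0409). Its call was lost with the replicate block (edgeR adjusted p = 0.0619), with DESeq2 (adjusted p = 0.138) and without each of 5 libraries, shCTL replicates 1, 2 and 3 and shPBRM1 replicates 1 and 2.

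**Figure D4:**
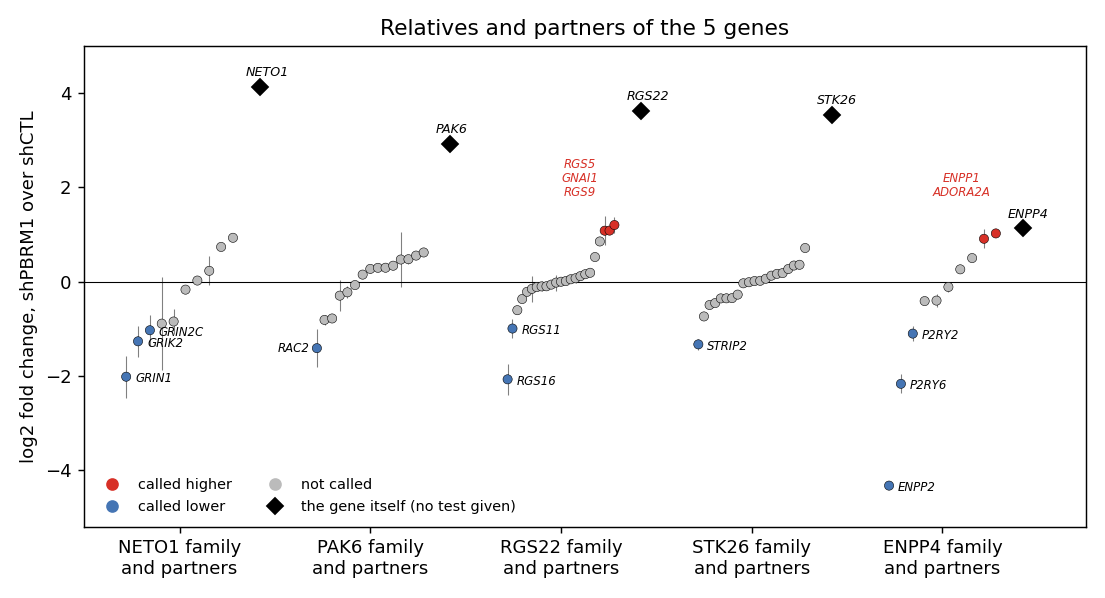
Log2 fold change, shPBRM1 over shCTL with 2 counts added (vertical axis), of the tested relatives and partners of each gene, ordered by value within each list, with standard errors as bars. Red points were called higher and blue points lower by edgeR, grey points were not called, and black diamonds show the 5 genes themselves, for which no test is given. The plot leaves out 1 tested gene of the PAK6 list, and ENPP2 at -4.33 has the largest decrease among these lists.

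The genes beside each of the 5 genes on its chromosome were examined next, taking the 5 nearest annotated genes with a row on each side. Of these 50 neighbours, 18 were tested, 18 had 0 counts in each library, and edgeR called none higher and 2 lower, next to 2.87% higher and 9.68% lower of all tested genes. At an unadjusted p under 0.05 without the fold minimum, 5 were higher and 9 lower, next to 32.9% and 34.6% of all tested genes, and DESeq2 called 2 higher and 2 lower. The 2 that DESeq2 called higher were CBLN2 beside NETO1 and FRMD7 beside STK26.

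FRMD7, a FERM domain protein known from congenital nystagmus, lies on the minus strand of the X chromosome at chrX:132076993-132128020, so that its end is 1050 bases from the end of STK26 and the genes point toward each other. It had 2, 2 and 0 counts in shCTL and 12, 10 and 16 counts in shPBRM1 libraries, and all silenced libraries were above all control libraries. The ratio of the pooled counts, 38 against 4, was 7.96 after scaling, with an exact 95% interval of 2.87 to 30.7 for counting error. FRMD7 did not pass the filter, so it was not tested in the main comparison. Without the filter on low counts it was called (edgeR adjusted p = 0.00242), as it was with DESeq2 (adjusted p = 0.0109). Further out, RAP2C, a RAS-related GTPase 127 kb from STK26, was at 0.60 on the log2 scale (standard error 0.034, edgeR adjusted p = 7.03e-13), under the fold minimum. FIRRE, a long noncoding RNA 193 kb to the other side, fell from 19, 21 and 30 counts to 1, 2 and 5 counts, a log2 fold change of -2.63 (standard error 0.33, edgeR adjusted p = 1.08e-05).

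CBLN2, a secreted synapse organizer 104 kb from NETO1, had 36, 29 and 48 counts in shCTL and 110, 81 and 72 counts in shPBRM1 libraries. Its log2 fold change of 0.96 (standard error 0.34, edgeR adjusted p = 0.00194) was just under the fold minimum, and it was called without shCTL replicate 1, shCTL replicate 3 or shPBRM1 replicate 3. The nearest tested gene on the other side of NETO1, FBXO15, had 0.32 (standard error 0.30, edgeR adjusted p = 0.383). BUB1B, a mitotic checkpoint kinase 17.6 kb upstream of PAK6 and first gene of the readthrough, was at 41.6 ± 1.48 CPM in shCTL and 77.7 ± 1.86 CPM in shPBRM1 (SD, n = 3 each). Its log2 fold change of 0.90 (standard error 0.036, edgeR adjusted p = 4.62e-15) was smaller than that of PAK6 and under the fold minimum. On the other side of PAK6, INAFM2 had -0.37 (standard error 0.15, edgeR adjusted p = 0.0571).

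RGS22 had the most tested neighbours, 6, and none was called. The nearest tested gene on each side was COX6C, a cytochrome c oxidase subunit 66.9 kb away, with a log2 fold change of 0.66 (standard error 0.067, edgeR adjusted p = 5.75e-12), and FBXO43, 2.09 kb away, with 0.17 (standard error 0.096, edgeR adjusted p = 0.180). Beyond FBXO43, POLR2K at 19.3 kb had 0.21 (standard error 0.056, edgeR adjusted p = 1.75e-04) and SPAG1 at 26.6 kb had -0.25 (standard error 0.026, edgeR adjusted p = 0.0022). Beside ENPP4, CLIC5 had -0.67 (standard error 0.47, edgeR adjusted p = 0.0638). RCAN2, a calcineurin regulator 74.0 kb from ENPP4, fell from 10, 14 and 22 counts to 0, 2 and 10 counts, a log2 fold change of -1.73 (standard error 0.69, edgeR adjusted p = 0.00516).

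**Figure D5:**
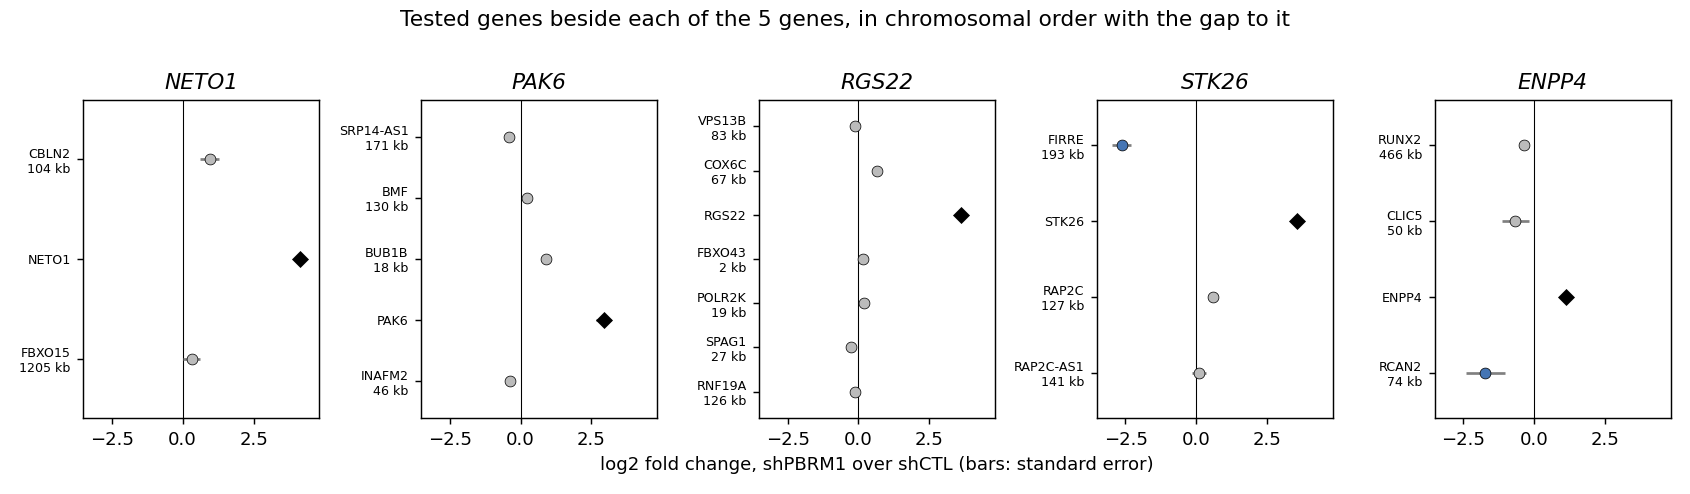
Log2 fold change, shPBRM1 over shCTL with 2 counts added (horizontal axis, bars are standard errors), of the tested neighbours of each gene, in chromosomal order with the gap in kb under the name. Black diamonds are the 5 genes, blue points were called lower, and grey points were not called. FRMD7, 1.05 kb from STK26, is not drawn because it did not pass the filter.

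RefSeq promoters, 250 bases before to 50 bases after a start, were at hand for NETO1 (3 windows), PAK6 (2 windows) and STK26 (1 window). The GC content of these windows was between 36% and 73.3%, where the median of 35116 RefSeq promoters was 58.7%. The outermost NETO1 window had 28 CpG dinucleotides and the STK26 window 29, against a median of 14. The first PAK6 window had 9, the second PAK6 window 26, and the innermost NETO1 window 1. A set of motifs was searched on both strands, and no matches of different motifs overlapped. None of the 6 windows held the ISRE core, which is a pair of GAAA blocks with 2 bases between them (found in 3.57% of all promoters), the GAS motif TTCNNNGAA (7.66%), the AP-1 motif TGACTCA (4.95%), the CRE motif TGACGTCA (1.85%) or the TATA motif TATAAA (11.5%). The E-box CAGGTG was in 1 PAK6 window (20.6% of all promoters), and the GC box GGGCGG was in 4 of the 6 windows (45.0%). These matches describe letters in these windows and nothing more.

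The part of other cell types in these results was not tested, but markers of such cells were examined because NETO1 is best known from neurons and RGS22 from testis. Of 5 neuronal markers, 4 were tested, and none was called higher by edgeR or DESeq2. By edgeR, 1 of them, SYN1, was called lower, next to 2.87% higher and 9.68% lower of all tested genes. Without the fold minimum, 0 were higher and 3 lower at an unadjusted p under 0.05, next to 32.9% and 34.6% of all tested genes. The summed level of the 5 markers was 78.7 to 82.0 CPM in shCTL and 65.6 to 66.2 CPM in shPBRM1 libraries. Most of it came from MAP2, with means of 64.6 and 56.1 CPM. The germ cell markers DDX4, DAZL and MAEL had at most 2 counts in any library. Of the ciliated cell markers, DNAI1 was tested and not called, and FOXJ1 and RSPH1 had at most 4 counts. Of the immune markers, CD3E had 0 counts in each library. PTPRC was called lower by edgeR (adjusted p = 6.35e-06), falling from 26, 40 and 44 to 12, 4 and 6 counts. CD14 was called higher by edgeR and not by DESeq2, with 9, 23 and 14 counts in control cells and 36, 29 and 44 after silencing. The endothelial markers PECAM1 and CDH5 were not tested, with summed levels of 0.0804 to 0.456 CPM in shCTL and 0.0257 to 0.0666 CPM in shPBRM1. Of the epithelial markers, CDH1 and CLDN4 were called lower by edgeR, and EPCAM and KRT19 did not pass its filter. DESeq2, run without that filter, called 3 of the 4 epithelial markers lower. KRT19 gave 6, 10 and 24 counts in control cells and 0 counts in all 3 silenced libraries. Of the mesenchymal markers, FN1 was called lower and the other 4 were not called, and of the receptors ERBB2 was tested and not called. In these RNA pools, fewer cells with a transcript and less transcript per cell cannot be told apart.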

How the data were processed

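RNA-seq of 3 shCTL and 3 shPBRM1 libraries was analyzed. The deposited file holds raw counts for each gene symbol, which the authors made from reads of a stranded poly(A) kit. The submitters' processing notes name CASAVA 1.8.2, STAR 2.7.9a, featureCounts, DESeq2 1.24.0 and GRCh38.p7; the annotation and strand setting are not given in the sources used here. Columns were matched to titles by name and replicate number; the control columns carry the line and number only. The members and lists were chosen with earlier results of these data known.

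Counts were normalized by TMM in edgeR 4.0.16 (R 4.3.3), filtered by filterByExpr (15450 genes) and tested by its quasi-likelihood method, adjusting p-values after Benjamini and Hochberg. Log2 fold changes were fitted with a prior count of 2, and standard errors come from log2 CPM between replicates. A floor of 3 counts was used. In the table, 14 rows carry dates in place of symbols and were kept. Same-numbered libraries deviated together, with correlations across 5622 genes of 0.734, 0.593 and 0.419 (-0.671 to 0.464 for different numbers, the highest for shCTL replicate 2 with shPBRM1 replicate 3), so the replicate number from the titles was also fitted as a block. Within groups, libraries differed beyond sampling noise (chi-square per degree of freedom 4.92 to 24.9). Alternatives were DESeq2 1.42.0, other scalings, filters, floors and prior counts, glmTreat, no fold minimum and each library left out. On counts simulated for this comparison with 200 genes changed 4-fold, edgeR recovered 200 with 0 false calls among 15491 genes tested, and DESeq2 recovered 199 with 0 among 23369. The simulation gave every gene the same dispersion, changed only genes above a count minimum and held no shared replicate effect. It therefore checks that the code runs correctly and does not measure how reliable the calls of low genes are here. Positions are those of GENCODE v29 on GRCh38, and promoters those of RefSeq on GRCh38.p14. No promoter was used for RGS22 or ENPP4.

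Named genes are the 5 genes, PBRM1, the closest relatives, up to 3 called genes per list and direction, the 3 nearest patterns (except those resting on control counts at the floor), and neighbours that were called or are the nearest tested on each side. Results of some listed genes are not reported here. Other genes named were chosen after their values were seen.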

Additional observations from a re-analysis of the deposited data

How the results depend on the processing

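The log2 fold changes of the 5 genes kept their direction under each alternative that gave a value. With the replicate block they were 4.12 for NETO1, 2.93 for PAK6, 3.60 for RGS22, 3.54 for STK26 and 1.13 for ENPP4. The block left 457 genes higher and 1498 lower of all tested, 4 relatives higher and 10 lower, and 0 and 2 neighbours, and apart from ADORA2A and RGS11 it changed no call among relatives and neighbours. DESeq2 gave 4.38 for NETO1, 4.61 for RGS22 and 6.71 for STK26, and a prior count of 0.5 gave 4.29 for RGS22 and 5.44 for STK26; DESeq2 adds no prior count, and control counts of these genes were at or near the floor. With library size only, ENPP4 was at 1.08. A mean of at least 50 counts left RGS22 and STK26 out. Leaving out single libraries gave 4.04 to 4.25 for NETO1, 2.72 to 3.13 for PAK6, 3.46 to 3.78 for RGS22, 3.47 to 3.60 for STK26 and 1.11 to 1.15 for ENPP4.

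Of all tested genes, 443 were higher and 1496 lower; a mean of at least 50 counts gave 270 and 941, glmTreat 175 and 913, and no fold minimum 4863 and 5137. Leaving out 1 library gave 441 to 493 and 1485 to 1604. For relatives and partners, the 5 higher and 11 lower became 3 and 5 under the 50-count minimum, 0 and 6 with glmTreat and 27 and 27 without the fold minimum; library size only gave 3 higher, and leaving out 1 library 3 to 4 higher and 9 to 11 lower. For neighbours, the 0 higher became 2 with DESeq2, 1 without the filter on low counts, 5 without the fold minimum and 0 to 2 with 1 library left out, while the 2 lower became 0 under the 50-count minimum, 1 with glmTreat and 7 without the fold minimum. Stricter filters test fewer genes, and glmTreat asks for more than the fold minimum. Floors of 0 and 10 counts gave 106 and 68 rows in place of 101 and 131 and 194 in place of 145. At 0 to 3 control counts, depth limits the size of the rise of RGS22 and STK26.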

Other observations

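Among the other rows at the floor in shCTL and above it in shPBRM1 libraries, named here after their values were seen, the highest shPBRM1 levels after RGS22 and STK26 were those of EYS and BCHE. EYS, a gene of photoreceptors, gave 2 counts in all 3 control libraries and 19, 8 and 21 counts in the shPBRM1 libraries. BCHE, which encodes butyrylcholinesterase, had 0, 2 and 0 counts in shCTL and 20, 4 and 18 counts in shPBRM1 libraries, with shPBRM1 replicate 2 well below the other libraries of its group. Neither passed the filter on low counts, so neither was tested.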
